A study of Mus musculus with 8 samples.

Results

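The locus at chr11:109011644-109012101 (mm10, minus strand) is a short stretch of the mouse genome from which many overlapping small RNAs of sperm were listed under piRNA names. Each piRNA name was used once, at its first listed place after sorting by chromosome as text and then by start, and a name belonged to the locus where that place lay between positions 109011640 and 109012105 of chromosome 11. This gave 198 of 13450 names in the table that holds MC-LR and control libraries, and 390 of 17375 names in the table that holds Hsp90aa1 shRNA and negative-control shRNA libraries. Both tables share 132 of these members, which is 66.7% of the members in the MC-LR table and 33.8% of those in the shRNA table, and 456 names are members in at least 1 of them.

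Small RNA was sequenced from sperm of Balb/c mice aged 8 months in 4 groups of 2 libraries, lettered A and B: MC-LR, control, Hsp90aa1 shRNA and negative-control shRNA. The toxin MC-LR (microcystin-LR) is made by cyanobacteria and blocks protein phosphatases, and the product of Hsp90aa1 is the inducible HSP90 chaperone of the cytosol. Pairs of values are in the order A, B. The labels give no MC-LR dose and no cell type or route for the shRNAs. They do not state that A and B are different animals, so the spread between libraries behind the p-values may be technical. In limma that spread is partly shared over all names of a table, so it is not that of each name alone. The series' design text speaks of 2 MC-LR doses without saying which library had which, so MC-LR A and B, averaged here as 1 group because they carry the same label, may differ in dose, and their SD would then include it. Hsp90aa1 itself is a messenger RNA with no value among these small RNAs, so the knockdown could not be checked here.

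piRNAs are small RNAs of germ cells that guide PIWI proteins to transposons and other transcripts. They are cut from long precursor transcripts, and primary piRNAs favour a uridine as the first base. Sperm also holds fragments of ribosomal, transfer and other structural RNAs, and collections of piRNA names can include sequences that match such RNAs.

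The locus lies inside the RefSeq noncoding gene Gm36876 (chr11:108980739-109034783, GRCm38.p6), and no GENCODE M21 gene overlaps it. The nearest GENCODE genes are the processed pseudogene Gm11668, 2863 bases away, and the snRNA gene Gm24149, 54883 bases away. No genome sequence was used here, so letters could be read only for members that are also listed inside an exon of another gene. This held for 20 members in the MC-LR and 23 in the shRNA table that lie at chr11:109011650-109011684 and are listed again in an exon of AA474408, an unclassified GENCODE gene on the minus strand of chromosome 7. The exon stretch, read from the GENCODE M21 transcripts, is shown first, at chr7:110059827-110059869 of GRCm38, with piR-mmu-20213743, the most abundant member there in the MC-LR table, in capitals. It is followed by 5 members with the first base in capitals, to show how they differ by a few bases at either end.

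AA474408 stretch: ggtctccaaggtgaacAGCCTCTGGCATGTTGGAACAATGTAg

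piR-mmu-20213743: Agcctctggcatgttggaacaatgta

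piR-mmu-12069737: Acagcctctggcatgttggaacaatgtag

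piR-mmu-3915422: Aacagcctctggcatgttggaacaatg

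piR-mmu-11423082: Cagcctctggcatgttggaacaatgta

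piR-mmu-15709252: Agcctctggcatgttggaacaatg

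These members are nested or shifted versions of the same letters. A first base T, which stands for uridine, was found in 2 of the 20 members in the MC-LR table and 1 of the 23 in the shRNA table, and a first base A in 9 and 12. An adenine at the tenth base, the mark of piRNAs made by the ping-pong cycle, was found in 2 and 1 of them. These counts come from overlapping names of 1 short stretch and do not describe the rest of the locus. The names held 73.9 of 1333 RPM in MC-LR A and 35.5 of 1370 RPM in Hsp90aa1 shRNA A. As background, the same letters occur in the large ribosomal RNA of vertebrates. That match was not tested, because the reference used held no 28S sequence, and of 141767 GENCODE transcripts, 354 of type rRNA, only those of AA474408 hold any 20-base window of the stretch.

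At the other end of the locus letters could be read for a single name, through an exon of Gm35281 (chr14:29787930-29787947, minus strand, GRCm38). Its sequence is shown because 15 members of the shRNA table, this name included, share the 5′ end at 109012101, the outermost base of the locus. They would all begin with these 18 bases if chromosome 11 holds the same letters there, which was not checked.

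piR-mmu-49502965: Acaagaactttgaaggcc

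All 198 and all 390 members lie on the minus strand. They are 18 to 33 nt long, with a median of 27 nt in the MC-LR table and 26 nt in the shRNA table, the same medians as all names of each table. Of the members, 153 and 274 are listed at this locus alone, 45 and 109 at 2 loci, and 0 and 7 at 3 or 4 loci. Some of the second loci repeat the inner part of the locus: the exon of AA474408 repeats its inner end (20 and 23 members), and an intron of 4933404O12Rik (chr5:136932952-136932986) a part next to it (9 and 8 members). Another 16 and 85 members are also listed on still other chromosomes, most of the members with several loci in the shRNA table. Members listed at this locus alone held 1086 of 1370 and 784 of 940 RPM in Hsp90aa1 shRNA A and B. In negative-control shRNA A and B they held 3284 of 4363 and 3690 of 4985 RPM. Reads of members with several listed loci cannot be assigned to 1 of them. The values of 0 members in the MC-LR and 16 in the shRNA table differ between their loci, and the value at the first place was used. With the locus of the highest mean instead, 103 of 103 and 367 of 368 lower calls of the limma fit below were kept. A further 68 and 83 names are listed at the locus but were kept elsewhere by the rule, 68 and 81 of them at chr11:17221285-17221333 within the gene Wdr92. These names summed to 147 and 168 RPM in MC-LR A and B, against 462 and 381 RPM in control A and B. In the shRNA table they summed to 83.8 and 44.6 RPM in Hsp90aa1 shRNA A and B, against 429 and 545 RPM in negative-control shRNA A and B. The nearest kept names outside are 1015 kb below the locus (piR-mmu-2990018, with 11.4 and 11.3 RPM in MC-LR A and B, against 0.957 and 0.605 RPM in the control libraries) and 6401 kb above it (piR-mmu-40377231, with 2.02 and 3.35 RPM in MC-LR A and B, against 10.2 and 3.63 RPM in control A and B). In the shRNA table the nearest outside names are piR-mmu-50550876 and piR-mmu-48713416, at 1015 and 6401 kb.

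Levels are in RPM, which scales reads to a common library size, with totals between 4960467 and 14634370 reads per library. The median member had 8 to 9 reads in the MC-LR libraries, 17 to 53 in the control libraries, 7 to 15 in the Hsp90aa1 shRNA libraries and 40 to 56 in the negative-control shRNA libraries. Every member had at least 1 read in each library of its table. A count of 3 reads corresponds to 0.205 to 0.605 RPM. Names overlap and may share reads, so sums over names can count a read more than once and names are not independent measurements. Nearly all listed names were lower per library total in both comparisons: summed over all other names, the level was 3.04-fold lower under MC-LR and 7.56-fold lower with the Hsp90aa1 shRNA. Each change at the locus is therefore given per library total and again relative to the list, where the sum of the locus points the other way. In bulk sperm, fewer cells of a type and less RNA per cell cannot be told apart.

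Under MC-LR the locus held 1333 RPM in A and 1278 RPM in B, against 3513 RPM in control A and 2878 RPM in control B. Both MC-LR libraries were below both control libraries. The means were 1306 ± 38.6 RPM under MC-LR and 3196 ± 449 RPM in control (SD, n = 2 each), 2.45-fold lower and a log2 difference of −1.28 between the mean log2 sums (two-sided exact permutation p = 0.333, the smallest that 2 libraries against 2 can give). As a share of all listed names, the locus was higher, not lower. It took 1.07% (95% Wilson interval 1.05 to 1.09%) in MC-LR A and 1.09% (1.07 to 1.11%) in MC-LR B, against 0.923% (0.915 to 0.931%) in control A and 0.817% (0.803 to 0.830%) in control B. The share differed by 0.31 on the log2 scale, the groups did not overlap, and the exact p was again 0.333.

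The shRNA comparison had the same form and a larger size. The locus held 1370 RPM in Hsp90aa1 shRNA A and 940 RPM in B, against 4363 RPM in negative-control shRNA A and 4985 RPM in B. The groups did not overlap, and the means were 1155 ± 304 RPM with the Hsp90aa1 shRNA and 4674 ± 440 RPM with the negative-control shRNA (SD, n = 2 each), 4.05-fold lower and −2.04 on the log2 scale (exact permutation p = 0.333). As a share of all listed names, the locus took 2.81% (2.77 to 2.85%) and 2.98% (2.92 to 3.04%) in Hsp90aa1 shRNA A and B, against 1.57% (1.56 to 1.59%) and 1.55% (1.53 to 1.56%) in the negative-control shRNA libraries. This share was 1.85-fold higher with the Hsp90aa1 shRNA (log2 difference 0.89, exact p = 0.333). The intervals cover counting error only. They treat each read as counted once, so they may be too narrow where names share reads.

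The copy of the 45S ribosomal RNA repeat on chromosome 17 holds 4086 names in the MC-LR and 4876 in the shRNA table and was set beside the locus. The 45S repeat is the precursor of the 18S, 5.8S and 28S ribosomal RNAs. Its names summed to 29925 and 26749 RPM in MC-LR A and B, against 84906 and 77343 RPM in control A and B, 2.86-fold lower. In the shRNA table they summed to 7695 and 5255 RPM in Hsp90aa1 shRNA A and B, against 50239 and 52463 RPM in negative-control shRNA A and B, 7.93-fold lower. Per 100 RPM of the 45S copy the locus had 4.45 and 4.78 RPM in MC-LR A and B, against 4.14 and 3.72 RPM in control A and B (log2 difference 0.23). The corresponding values were 17.8 and 17.9 RPM in Hsp90aa1 shRNA A and B, against 8.68 and 9.50 RPM in negative-control shRNA A and B (log2 difference 0.97). In both comparisons the ratio was higher in both MC-LR and in both Hsp90aa1 shRNA libraries than in their controls, with an exact permutation p of 0.333.

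**Figure D1:**
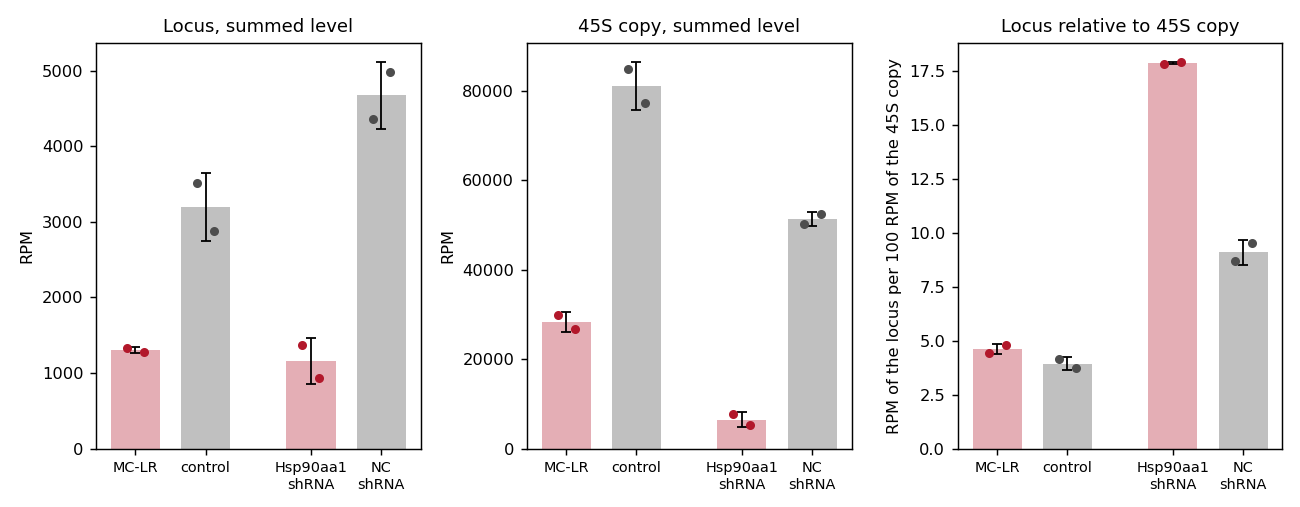
Summed level of the locus (left) and of the 45S copy on chromosome 17 (middle) in RPM, and RPM of the locus per 100 RPM of the 45S copy (right). Bars are means of 2 libraries, error bars the SD, points the libraries A and B, and NC is negative-control; both sums are lower in MC-LR and Hsp90aa1 shRNA, while the ratio is higher, at 17.8 and 17.9 with the Hsp90aa1 shRNA against 8.68 and 9.50 in its control.

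Along the locus the members covered 4 stretches separated by bases that no member covers in either table. Names listed here but kept elsewhere are left out, so the gaps and shares may depend on the rule. The first, chr11:109011644-109011717, holds the letters shared with AA474408. The second, chr11:109011724-109011782, is 59 bases long and carried most of the level in the MC-LR table, 74.3% of the locus under MC-LR and 76.1% in control. The third is chr11:109011818-109011909, and the fourth, chr11:109011914-109012101, reaches the outer end. In the shRNA table the fourth stretch was the other main part, with 37.3% of the locus in Hsp90aa1 shRNA and 46.4% in negative-control shRNA libraries, beside 49.6% and 40.2% for the second stretch. The fourth stretch held 53 members in the MC-LR and 177 in the shRNA table.

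In the MC-LR table the first stretch summed to 132 and 122 RPM in MC-LR A and B, against 295 and 281 RPM in the control libraries, and the second to 1004 and 936 RPM, against 2713 and 2153 RPM. The third summed to 43.8 and 61.0 RPM in MC-LR A and B, against 152 and 120 RPM in the control libraries, and the fourth to 153 and 159 RPM, against 353 and 324 RPM. Per library total every stretch was lower under MC-LR, by 2.27-, 2.51-, 2.59- and 2.17-fold from the first to the fourth, and in none of them did the groups overlap. The folds lie close together, and all 4 are smaller than the 2.86-fold of the 45S copy.

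In the shRNA table the first stretch summed to 106 and 82.7 RPM in Hsp90aa1 shRNA A and B, against 455 and 356 RPM in the negative-control shRNA libraries, and the second to 626 and 520 RPM, against 1825 and 1933 RPM. The third summed to 70.2 and 43.1 RPM in Hsp90aa1 shRNA A and B, against 193 and 245 RPM in the negative-control shRNA libraries, and the fourth to 568 and 293 RPM, against 1890 and 2451 RPM. Here the folds were spread more widely, 4.30-, 3.28-, 3.86- and 5.04-fold lower from the first stretch to the fourth. The difference between stretches was not tested.

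**Figure D2:**
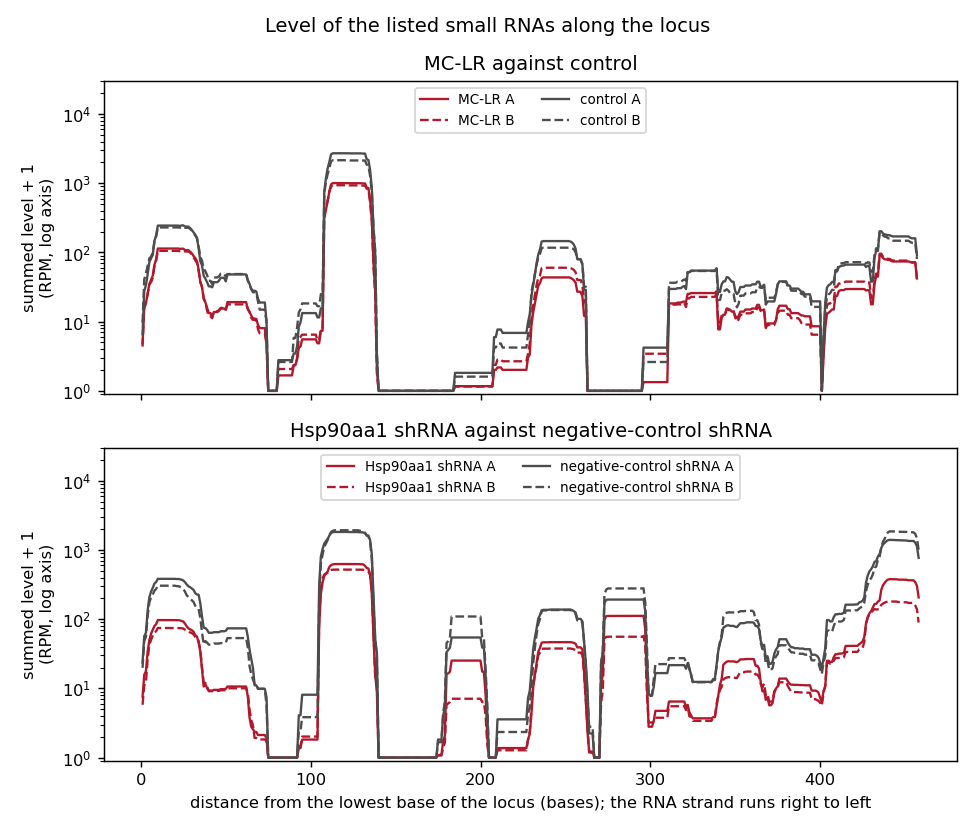
Summed level of all members that cover each base, in RPM plus 1 on a log axis, against the distance from the lowest base of the locus, for MC-LR and control libraries (top) and Hsp90aa1 shRNA and negative-control shRNA libraries (bottom). The tallest plateau is the second stretch, with peaks of 1004 and 935 RPM in MC-LR A and B, against 2711 and 2151 RPM in the control libraries, and the plateau at the right edge is tall only in the shRNA table.

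The members had 82 different 5′ ends in the MC-LR and 121 in the shRNA table, but much of the summed level came from a few of them. Of the members in the MC-LR table, 34 have their 5′ end in the last 13 bases of the second stretch, and these summed to 1000 and 931 RPM in MC-LR A and B, against 2700 and 2135 RPM in control A and B. They made up 75% and 72.8% of the locus in the MC-LR libraries and 76.9% and 74.2% in the control libraries, so the pile kept its share of the locus. The same window held 72 members of the shRNA table, with 45.6% and 55.3% of the locus in Hsp90aa1 shRNA A and B, against 41.7% and 38.7% in the negative-control shRNA libraries.

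A pile of the same kind sits at the outermost 13 bases of the locus, with 7 members in the MC-LR table and 69 in the shRNA table. It took 5.48% and 5.89% of the locus in MC-LR A and B, against 4.82% and 5.10% in control A and B. In the shRNA table it took 27.2% and 18.7% in Hsp90aa1 shRNA A and B, against 31.6% and 36.9% in the negative-control shRNA libraries. Per 100 RPM of the inner pile, the outer pile had 59.6 and 33.9 RPM in Hsp90aa1 shRNA A and B, against 75.9 and 95.2 RPM in negative-control shRNA A and B. Both Hsp90aa1 shRNA libraries were below both controls, although the 2 Hsp90aa1 shRNA libraries differed more from each other than A differed from negative-control shRNA A. The windows were chosen after the values were seen, so no test is given. The 15 members that start at 109012101 alone held 205 and 88.5 RPM in Hsp90aa1 shRNA A and B, against 769 and 994 RPM in negative-control shRNA A and B, 6.003-fold lower per library total. No member of the MC-LR table starts at that base. Part of the level of the outer pile may come from other loci, because some of its names are listed at more than 1.

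Among single members, 103 of the 194 tested in the MC-LR table (53.1%) were lower under MC-LR per library total at a false discovery rate of 0.05 in limma, where 73.1% of all tested names were lower. edgeR on library totals called 104 of 194 lower (background 76.0%). Members of this table had fewer reads than the list. By library, their median was 8 (MC-LR A), 9 (MC-LR B), 53 (control A) and 17 reads (control B). For all names of the table the medians were 13, 15, 98 and 33 reads in the same order. How far this lower depth reduced the share of members called was not tested. In limma none was higher, where 2.37% of all tested names were, and 91 members did not pass. At an unadjusted limma p under 0.05, 116 members were lower and 0 higher (background 78.2% lower and 2.37% higher). Another 4 members had a mean under 1 RPM in both groups and were not tested. The median member had a log2 fold change of −0.83, between −2.47 and −0.28, beside −1.17 for all tested names. Of all 198 members, 185 had both MC-LR libraries below both control libraries, which was true of 92.6% of all names. The count of lower members was 25 with MC-LR A left out and 35 with MC-LR B left out, where 5287 and 5386 of the 13271 names tested were lower. Under a stricter filter, a group mean of 10 RPM or more, 36 of 39 were lower (background 87.4%). The share of members was then above the background, the reverse of the order at 1 RPM or more. Scaled on the listed names, with edgeR and TMM factors, the median member moved to 0.40 and that of all names to 0.06, and 0 members were called in either direction (background 2.17% lower and 2.37% higher), with 3 lower and 9 higher at an unadjusted p under 0.05 (background 10.1% and 4.85%). DESeq2 with its size factors gave an adjusted p to 102 of the 194 and called 0 of them in either direction (background 4.13% lower and 3.28% higher). At an unadjusted p under 0.05 it had 1 lower and 2 higher (background 8.2% and 3.19%).

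The most abundant member of the MC-LR table, piR-mmu-48969069 (27 nt, chr11:109011751-109011777), had 244 and 264 RPM in MC-LR A and B, against 542 and 469 RPM in control A and B. It was lower per library total, 1.99-fold by the means (log2 fold change −0.99 ± 0.33 SE, limma adjusted p = 0.0209), but not past the threshold without MC-LR A (−0.93) or MC-LR B (−1.04), and its sign turned with TMM factors (0.72). piR-mmu-54961111 (25 nt, chr11:109011755-109011779) had 102 and 82.2 RPM in MC-LR A and B, against 297 and 231 RPM in control A and B (log2 fold change −1.51, limma adjusted p = 0.00398). piR-mmu-50376330 (23 nt) had 81.6 and 49.5 RPM in MC-LR A and B, against 254 and 136 RPM in the control libraries, and piR-mmu-49367357 (24 nt) had 65.8 and 48.0 RPM, against 194 and 128 RPM. All 3 names fell per library total, the last 2 by 1.53 and 1.47 on the log2 scale (limma adjusted p = 0.00910 and 0.00620), without overlap of the groups. None of the 3 passed without MC-LR B (−1.36, −1.18 and −1.25), and with TMM factors each lay between 0.15 and 0.21.

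Other abundant members missed the threshold. piR-mmu-10862552 (25 nt) had 135 and 108 RPM in MC-LR A and B, against 242 and 181 RPM in control A and B (log2 fold change −0.79, limma adjusted p = 0.0568). piR-mmu-49252262 (26 nt) had 76.1 and 75.1 RPM in MC-LR A and B, against 143 and 114 RPM in control A and B (−0.75, limma adjusted p = 0.0615). Both passed without control B, at −0.99 and −0.91. These 6 most abundant members, all within the second stretch, made up 52.9% and 49.0% of the locus in the MC-LR libraries and 47.6% and 43.7% in the control libraries.

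The lowest log2 fold changes and smallest p-values under MC-LR belonged to names of the same pile, on the log2(RPM + 1) scale, which understates the change of low names. piR-mmu-31009688 (27 nt, chr11:109011752-109011778) had 17 and 24.1 RPM in MC-LR A and B, against 109 and 96.8 RPM in control A and B, 5.02-fold lower (log2 fold change −2.29 with SE 0.35, adjusted p = 5.34e-04 in limma). piR-mmu-49175988 (24 nt) had 14.5 and 13.9 RPM in MC-LR A and B, against 94.2 and 60.3 RPM in control A and B (−2.33, limma adjusted p = 5.55e-04). piR-mmu-56222696 (31 nt) had 1.68 and 2.13 RPM in MC-LR A and B, against 11.3 and 20.2 RPM in control A and B, 8.24-fold lower (−2.47, limma adjusted p = 5.37e-04), and piR-mmu-30513076 (30 nt) had 2.02 and 1.37 RPM, against 10.1 and 13.3 RPM (−2.24, limma adjusted p = 6.37e-04). These 4 names stayed below 0 with TMM factors, between −1.33 and −0.62, without a call. By the ratio of means a name of low level in the third stretch, piR-mmu-4152422 (26 nt, named after its values were seen), came second, 7.43-fold lower, with 1.18 and 0.610 RPM in MC-LR A and B, against 7.24 and 6.05 RPM in control A and B.

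Some names that differ by a single base changed to different degrees. piR-mmu-31009688 has the same length as piR-mmu-48969069, shares 26 of its 27 bases and starts 1 base further out. Per 100 RPM of piR-mmu-48969069 it had 6.96 and 9.12 RPM in MC-LR A and B, against 20.2 and 20.6 RPM in control A and B. The pair was picked on these values, so they are a description. In the shRNA table the ratio was 6.20 and 3.72 in Hsp90aa1 shRNA A and B, against 14.1 and 14.4 in the negative-control shRNA libraries. The groups did not overlap in either table, and 2 libraries against 2 allow no exact p below 0.333. Another such pair, also picked on its MC-LR values, did not repeat this. Per 100 RPM of piR-mmu-50376330, piR-mmu-49175988 had 17.7 and 28 RPM in MC-LR A and B, against 37.0 and 44.3 RPM in control A and B. In the shRNA table it had 32 and 37.1 RPM in Hsp90aa1 shRNA A and B, against 40.5 and 34.9 RPM in the negative-control shRNA libraries. Here the groups overlapped.

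At the ends of the range, piR-mmu-35326637 (20 nt) and piR-mmu-38939396 (18 nt), both in the third stretch, had the smallest changes under MC-LR on the log2(RPM + 1) scale. Both are of low level, and edgeR on library totals gave them −1.19 and −1.16. By the ratio of means the smallest change was that of piR-mmu-23830886 (26 nt), 1.61-fold lower, a name outside the rule for named members and picked on its value. The shorter of the pair of low names had 0.842 and 1.07 RPM in MC-LR A and B, against 3.42 and 0.403 RPM in control A and B (log2 fold change −0.35, limma adjusted p = 0.477). The longer had 0.673 and 0.457 RPM in MC-LR A and B, against 1.98 and 0.202 RPM in control A and B (−0.28, limma adjusted p = 0.506). In both, control A was the highest and control B the lowest of the 4 libraries, and without control B both names passed, at −1.18 and −0.93. Nearest to the lower edge of the locus, piR-mmu-30366150 (30 nt) had 3.87 and 3.35 RPM in MC-LR A and B, against 5.60 and 8.67 RPM in control A and B (−0.80, limma adjusted p = 0.0621), and it passed without control A (−1.07). At the upper edge, piR-mmu-10901667 (23 nt) had 30.0 and 30.3 RPM in MC-LR A and B, against 65.6 and 56.8 RPM in control A and B (−0.99, limma adjusted p = 0.0229), a call that was lost without MC-LR A (−0.99) or B (−1.003).

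**Figure D3:**
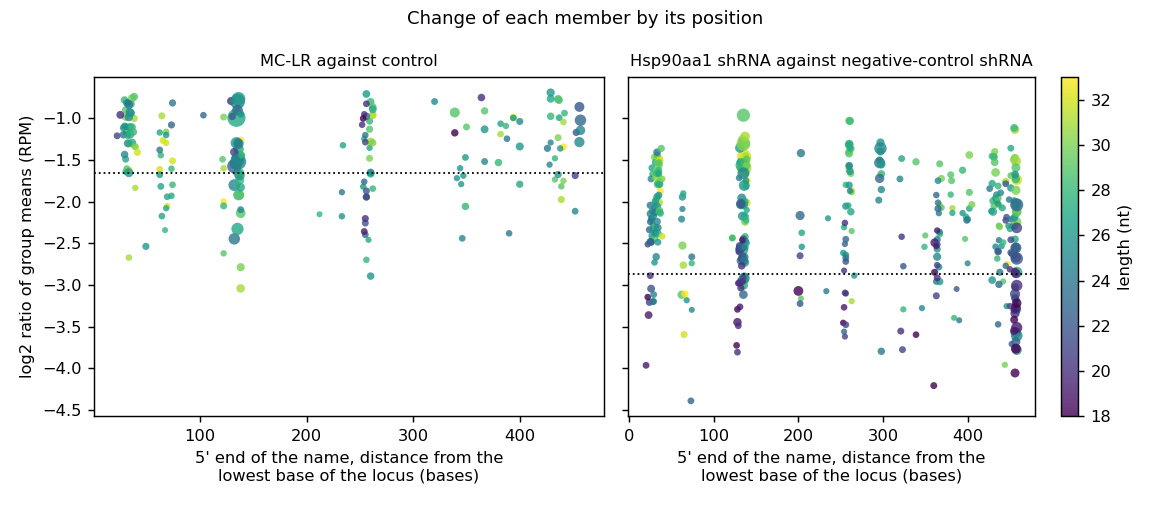
Log2 ratio of the group means in RPM (MC-LR over control, left; Hsp90aa1 shRNA over negative-control shRNA, right) of every member against the distance of its 5′ end from the lowest base of the locus, coloured by length, with point area growing with mean RPM. The dotted line is the median of all names of the table, −1.66 and −2.86; all members lie below 0 per library total, and 140 of 198 and 303 of 390 lie above the line.

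With the Hsp90aa1 shRNA, 368 of the 375 tested members were lower per library total at a false discovery rate of 0.05 in limma, where 99.5% of all tested names were lower. edgeR on library totals called 363 of 375 lower (background 99.1%). In limma none was higher, where 0.219% of all tested names were, 7 did not pass and 15 had too low a level to be tested. At an unadjusted limma p under 0.05 the counts and the background were the same, 368 lower and 0 higher. A share this near the background is not a result about the locus. All 390 members had both Hsp90aa1 shRNA libraries below both negative-control shRNA libraries, as did 99.8% of all names. The median log2 fold change was −1.34, between −3.52 and −0.71, beside −1.66 for all tested names. Without Hsp90aa1 shRNA B, the library with the lowest level, 244 members were lower, and 14346 of the 16857 names tested. Under the filter of 10 RPM, 86 of 89 were lower (background 99.2%). With edgeR and TMM factors the median member moved to 0.62 and that of all names to −0.03, and 0 members were called in either direction (background 0.125% lower and 0.219% higher), with 0 lower and 65 higher at an unadjusted p under 0.05 (background 7.01% and 4.72%). DESeq2 gave an adjusted p to 194 of the 375 and called 0 of them lower and 1 higher (background 1.58% lower and 0.48% higher). At an unadjusted p under 0.05 it had 0 lower and 57 higher (background 4.62% and 3.68%).

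That 1 member was piR-mmu-22725052 (29 nt, chr11:109011750-109011778), 1 of the 6 most abundant. It had 65.1 and 56.2 RPM in Hsp90aa1 shRNA A and B, against 115 and 121 RPM in the negative-control shRNA libraries, and did not pass in limma (log2 fold change −0.95 ± 0.59 SE, limma adjusted p = 0.139). Its value with DESeq2 was 1.97. The most abundant member of the shRNA table, piR-mmu-10857199 (31 nt, chr11:109011749-109011779), had 56.7 and 75.7 RPM in Hsp90aa1 shRNA A and B, against 228 and 173 RPM in negative-control shRNA A and B (−1.59, limma adjusted p = 0.0288; 1.32 with TMM factors). piR-mmu-10870488 (32 nt) had 52.0 and 76.6 RPM in Hsp90aa1 shRNA A and B, against 216 and 138 RPM in negative-control shRNA A and B (−1.44, limma adjusted p = 0.0463; 1.47 with TMM factors). Both were lower without overlap per library total, and neither passed without negative-control shRNA A (−1.39 and −1.12) or B (−1.78 and −1.76), nor piR-mmu-10870488 without Hsp90aa1 shRNA A (−1.16).

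piR-mmu-48969069, the most abundant member of the MC-LR table, had 72.4 and 44.7 RPM in Hsp90aa1 shRNA A and B, against 156 and 190 RPM in negative-control shRNA A and B (log2 fold change −1.58, limma adjusted p = 0.0297; 1.25 with TMM factors). Its call was lost without Hsp90aa1 shRNA B (−1.24), negative-control shRNA A (−1.72) or negative-control shRNA B (−1.44). piR-mmu-17618 (30 nt) had 58.8 and 67.9 RPM in Hsp90aa1 shRNA A and B, against 160 and 153 RPM in the negative-control shRNA libraries, and narrowly missed the threshold (−1.30, limma adjusted p = 0.0561), which it passed without Hsp90aa1 shRNA B (−1.40). Of the 6 most abundant members of the MC-LR table all are also members in the shRNA table, but only 1 of the 6 most abundant in the shRNA table is a member in the MC-LR table. The 132 shared members took 96.0% and 95.2% of the locus in the MC-LR libraries and 96.1% and 94.0% in the control libraries. They took 23.4% and 18.8% in the Hsp90aa1 shRNA libraries and 22.96% and 23% in the negative-control shRNA libraries, so most of the level at the locus came from other names in the shRNA table.

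At the outer edge, piR-mmu-49649283 (23 nt, chr11:109012079-109012101) was the most abundant, with 51.7 and 15.8 RPM in Hsp90aa1 shRNA A and B, against 121 and 156 RPM in negative-control shRNA A and B (log2 fold change −2.22, limma adjusted p = 0.0108; 0.70 with TMM factors). It did not pass without negative-control shRNA A (−2.40) or B (−2.04). piR-mmu-15986008 (25 nt), which has the same 5′ end and 2 more bases at its 3′ end, had 9.88 and 4.62 RPM in Hsp90aa1 shRNA A and B, against 83.5 and 93.5 RPM in negative-control shRNA A and B. This was a 12.2-fold lower level and the lowest log2 fold change of the locus, −3.52 ± 0.58 SE (limma adjusted p = 7.21e-04). The name between them in length, piR-mmu-10940277 (24 nt), had 4.42 and 1.48 RPM in Hsp90aa1 shRNA A and B, against 39.03 and 42.0 RPM in negative-control shRNA A and B (−3.50, limma adjusted p = 6.37e-04). Per 100 RPM of the 23 nt name, the 25 nt name had 19.1 and 29.2 RPM in Hsp90aa1 shRNA A and B, against 68.9 and 59.9 RPM in negative-control shRNA A and B, a pair picked on these values.

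piR-mmu-10901667, which lies 1 base inside that edge, had 2.84 and 0.646 RPM in Hsp90aa1 shRNA A and B, against 20.8 and 23.99 RPM in negative-control shRNA A and B (−3.21, limma adjusted p = 6.84e-04). Its 18 nt neighbour piR-mmu-49502965, whose letters are given above, had 5.01 and 1.38 RPM in Hsp90aa1 shRNA A and B, against 14.5 and 45.1 RPM in negative-control shRNA A and B (−2.82, limma adjusted p = 0.00264). With 4 listed loci, the reads of this short name have no certain origin. The largest ratio of means in the shRNA table was that of piR-mmu-5987949 (23 nt, chr11:109011694-109011716), with 0.225 and 0.0923 RPM in Hsp90aa1 shRNA A and B, against 2.47 and 4.19 RPM in negative-control shRNA A and B (−1.88, limma adjusted p = 6.76e-04). Both Hsp90aa1 shRNA values are at or below 3 reads. piR-mmu-48817292 (21 nt) had 0.374 and 0.185 RPM in Hsp90aa1 shRNA A and B, against 3.09 and 3.14 RPM in negative-control shRNA A and B (−1.69, limma adjusted p = 7.07e-04).

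On the log2(RPM + 1) scale, which understates the change of low names, the smallest log2 fold changes of the shRNA table belonged to names of low level. By the ratio of means the smallest change was that of the abundant piR-mmu-22725052, 1.95-fold lower. piR-mmu-57602762 (31 nt) had 0.150 and 0.369 RPM in Hsp90aa1 shRNA A and B, against 1.24 and 0.897 RPM in negative-control shRNA A and B (−0.71, limma adjusted p = 0.00751), and did not pass without Hsp90aa1 shRNA A (−0.59). piR-mmu-55761860 (25 nt) had 0.225 and 0.277 RPM in Hsp90aa1 shRNA A and B, with the same 1.24 and 0.897 RPM in negative-control shRNA A and B (−0.72, limma adjusted p = 0.00609), and did not pass without Hsp90aa1 shRNA A (−0.69) or B (−0.75). edgeR on library totals gave −2.03 and −2.04 for these names, and both had positive values with TMM factors (0.76 and 0.74). Nearest to the lower edge, piR-mmu-61380488 (25 nt) had 2.02 and 0.462 RPM in Hsp90aa1 shRNA A and B, against 5.46 and 5.53 RPM in negative-control shRNA A and B (−1.63, limma adjusted p = 0.00449), and did not pass without Hsp90aa1 shRNA B (−1.10).

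Of the members whose letters are printed above, piR-mmu-20213743 had 5.05 and 6.71 RPM in MC-LR A and B, against 20.02 and 16.9 RPM in the control libraries, and 1.80 and 1.66 RPM in Hsp90aa1 shRNA A and B, against 7.41 and 6.95 RPM in negative-control shRNA A and B. Summed over the members shared with AA474408, the level was 73.9 and 68.4 RPM in MC-LR A and B, against 162 and 143 RPM in control A and B, 2.14-fold lower. This sum was 35.5 and 24.4 RPM in Hsp90aa1 shRNA A and B, against 133 and 98.4 RPM in negative-control shRNA A and B, 3.87-fold lower. Members listed at this locus alone were 2.47-fold lower under MC-LR and 3.73-fold lower with the Hsp90aa1 shRNA, so the lower level per library total was not limited to names with a second place.

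By length, members of 18 to 23 nt summed to 341 and 82.0 RPM in Hsp90aa1 shRNA A and B, against 980 and 1824 RPM in negative-control shRNA A and B, 6.62-fold lower. Members of 24 to 28 nt summed to 547 and 300.1 RPM in Hsp90aa1 shRNA A and B, against 1664 and 1872 RPM in negative-control shRNA A and B, 4.17-fold lower. Members of 29 to 33 nt summed to 481 and 558 RPM in Hsp90aa1 shRNA A and B, against 1719 and 1290 RPM in negative-control shRNA A and B, 2.90-fold lower. Per library total the fall was larger the shorter the class, a difference that was not tested. The same order held among all names of the table, whose median log2 ratios were −3.22, −2.79 and −2.61 from short to long, against −2.91, −2.14 and −1.72 for the members. Library B of the Hsp90aa1 shRNA stood apart in this measure: 18 to 23 nt members took 24.9% and 8.72% of the locus in Hsp90aa1 shRNA A and B, against 22.5% and 36.6% in the negative-control shRNA libraries, so the groups overlapped. All names of these libraries showed the same order, with 43.6% and 20.1% in this class in Hsp90aa1 shRNA A and B, against 33.9% and 52.6% in the negative-control shRNA libraries.

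Under MC-LR the classes were 2.43-, 2.42- and 2.71-fold lower from short to long, a difference that was not tested. Members of 24 to 28 nt made up 75.7% and 77.0% of the locus in MC-LR A and B, against 76.0% and 74.6% in control A and B. Among all names this class made up less, 38.9% and 36.7% in MC-LR A and B, against 42.9% and 42.1% in control A and B. In all 4 libraries the middle class held more of the locus than of the list. Control B stood apart in the long class. Members of 29 to 33 nt made up 9.80% and 10.9% of the locus in MC-LR A and B, against 8.98% in control A and 14.5% in control B. Among all names the long class made up 23.5% and 24.6% in MC-LR A and B, against 18.2% and 33.7% in control A and B, and the short class 37.1% and 38.0%, against 38.5% and 23.2%. Without control B the log2 difference of the summed locus was −1.43, beside −1.28 with all 4 libraries.

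**Figure D4:**
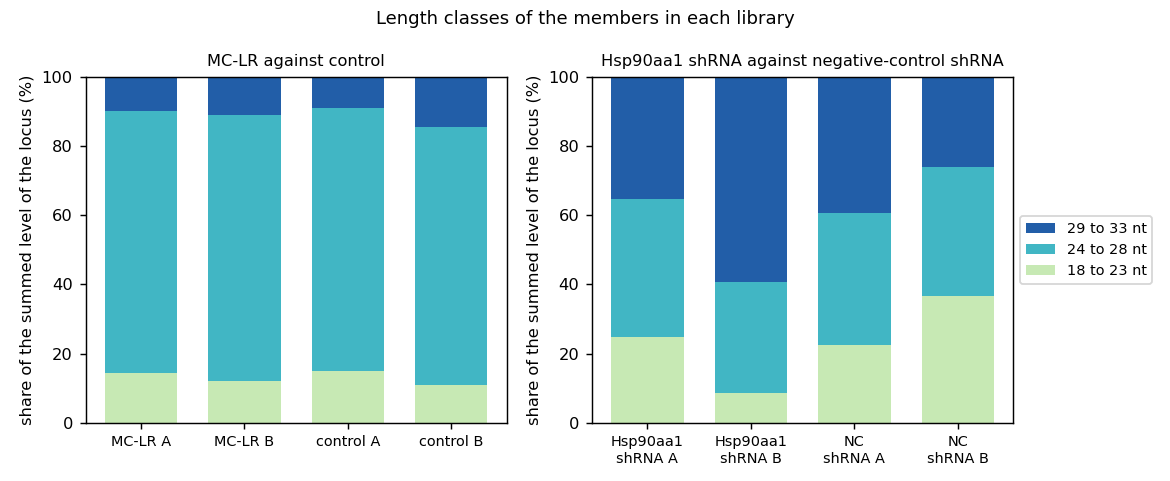
Share of the summed level of the locus, in %, held by members of 18 to 23, 24 to 28 and 29 to 33 nt in each library (NC, negative-control). In the MC-LR table the middle class holds 74.6% to 77.0% in all 4 libraries and the long class is largest in control B, at 14.5%, while Hsp90aa1 shRNA B has 8.72% in the short class against 24.9% in Hsp90aa1 shRNA A and 22.5% and 36.6% in the controls.

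Markers of cells that a sperm sample could hold were looked up as microRNA genes. Of 3 testis and sperm genes (Mir34b, Mir34c and Mir449a), 0 had a listed name in the MC-LR table and 3 in the shRNA table, where their names summed to 634 and 163 RPM in Hsp90aa1 shRNA A and B, against 1327 and 2641 RPM in negative-control shRNA A and B. The 4 genes of epididymal epithelium (Mir200a, Mir200b, Mir141 and Mir429) all had listed names, which summed to 1456 and 1526 RPM in MC-LR A and B, against 3786 and 2811 RPM in the control libraries, and to 280 and 75.9 RPM in Hsp90aa1 shRNA A and B, against 1685 and 2489 RPM in negative-control shRNA A and B. Blood had 2 of 3 genes listed, with sums of 2.19 to 3.96 RPM in MC-LR and 5.53 to 8.87 RPM in control libraries, and of 43.7 to 56.2 RPM in Hsp90aa1 shRNA and 272 to 405 RPM in negative-control shRNA libraries. Muscle had 1 of 2 genes listed in the MC-LR table (158 to 165 RPM in MC-LR and 220 to 407 RPM in control) and 2 of 2 in the shRNA table (10.9 to 29.9 RPM in Hsp90aa1 shRNA and 148 to 250 RPM in negative-control shRNA). Smooth muscle had 2 of 2 (108 to 133 RPM in MC-LR and 219 to 297 RPM in control, 196 to 886 RPM in Hsp90aa1 shRNA and 3167 to 5913 RPM in negative-control shRNA), and the liver gene Mir122 had 0 in both tables. The detected lists were lower per library total in the same direction as the locus, and their part in the result was not tested.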

How the data were processed

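The authors deposited 2 tables of RPM values (reads scaled to a common library size) per locus and piRNA name, each with 4 libraries. The submitters' processing notes name the build mm10 and the tools HTSeq 0.6.0, HISAT2 2.1.0 and Bowtie2 2.2.3, without their roles; the rule for listing names is not given in the sources used here. All values were whole multiples of 1 read (100% within 0.01), which gave back reads and library totals. Deposited starts count from 0 and were raised by 1 for printing: 442 of 475 names with 2 exonic loci then had the same sequence at both in the MC-LR table, against 202 otherwise, and 508 of 559 against 166 in the shRNA table.

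Each table was fitted whole and alone with limma 3.58.1 (trend, robust) in R 4.3.3, on log2(RPM + 1). Names entered with a group mean of 1 RPM or more, with Benjamini-Hochberg adjustment at 0.05. This scale understates changes of low names. Sums were compared by exact permutation. Recovered reads were tested with edgeR 4.0.16 on library totals and with TMM factors, and with DESeq2 1.42.0. Fits were also run on simulated data in which few names changed, as many up as down. The simulation held no shift of the whole list, so it does not bear on the choice of scaling. Python 3.11.15, pandas 2.3.3, numpy 2.4.6, scipy 1.17.1 and matplotlib 3.10.9 were used.

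Named in each table were the 6 most abundant members, the 4 with the smallest p in each direction, the 2 highest and 2 lowest log2 fold changes and the members nearest each edge. Members and lists were chosen with earlier results of these data known. The letters A and B were not treated as pairs, because the labels do not say that they mark shared animals or batches.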

Additional observations from a re-analysis of the deposited data

How the results depend on the processing

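The direction of the change at the locus depended on what the libraries are scaled to, and the cause was not tested. Per library total the summed locus was lower, and as a share of the listed names it was higher, by 0.31 under MC-LR and 0.89 with the Hsp90aa1 shRNA (log2). Without 1 library the log2 difference of the sum ranged from −1.43 to −1.14 under MC-LR and from −2.31 to −1.77 with the Hsp90aa1 shRNA, where the peak position gave −1.72. Relative to the 45S copy the difference ranged from 0.16 to 0.31 and from 0.91 to 1.04, and with only the members of both tables it was 0.84 in the shRNA table. The count of lower members ranged from 25 to 131 under MC-LR and from 244 to 331 with the Hsp90aa1 shRNA when 1 library was left out; with 1 library left in a group, its spread is taken from the other group. At a mean of at least 10 RPM, 36 of 39 and 86 of 89 members were lower, where 87.4% and 99.2% of all names tested under that filter were; the counts are smaller because fewer were tested. With TMM factors and with DESeq2, which gave an adjusted p to 102 and 194 members, 0 members were lower in both tables, and DESeq2 called 1 higher with the shRNA.

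Of the 29 named values, 19 turned above 0 when scaled on the list, and 10 stayed below 0 without passing, both with TMM factors and with DESeq2. Those below 0 under MC-LR were piR-mmu-31009688, piR-mmu-49175988, piR-mmu-56222696 and piR-mmu-30513076. With the Hsp90aa1 shRNA they were piR-mmu-15986008, piR-mmu-10940277, piR-mmu-10901667, piR-mmu-49502965, piR-mmu-5987949 and piR-mmu-48817292. The values above 0 follow. Under MC-LR, the log2 fold changes with TMM factors and with DESeq2 were 0.72 and 0.70 for piR-mmu-48969069, 0.19 and 0.17 for piR-mmu-54961111, 0.92 and 0.90 for piR-mmu-10862552, 0.15 and 0.13 for piR-mmu-50376330, and 0.21 and 0.20 for piR-mmu-49367357. They were 0.95 and 0.93 for piR-mmu-49252262, 0.69 and 0.67 for piR-mmu-10901667, 0.74 and 0.72 for piR-mmu-30366150, 0.56 and 0.63 for piR-mmu-38939396, and 0.53 and 0.66 for piR-mmu-35326637. With the Hsp90aa1 shRNA they were 1.32 and 1.40 for piR-mmu-10857199, 1.47 and 1.56 for piR-mmu-10870488, 1.25 and 1.32 for piR-mmu-48969069, 1.59 and 1.67 for piR-mmu-17618, and 1.90 and 1.97 for piR-mmu-22725052. The rest of those above 0 were 0.70 and 0.75 for piR-mmu-49649283, 0.64 and 0.67 for piR-mmu-61380488, 0.76 and 0.91 for piR-mmu-57602762, and 0.74 and 0.84 for piR-mmu-55761860. Over the 29 named values and all settings, 275 of 365 recomputed values kept direction and side of the threshold, 44 kept the direction without passing, 8 newly passed and these 38 turned.

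With the letters as a replicate block, 90 members were lower under MC-LR and 328 with the Hsp90aa1 shRNA, where piR-mmu-10857199, piR-mmu-10870488 and piR-mmu-48969069 no longer passed. The deviations of same-lettered libraries correlated by 0.06 in the MC-LR table and −0.60 in the shRNA table; with the letters crossed, a setting chosen after seeing the data, 375 members were lower in the shRNA table. Also chosen after seeing the data, every name listed at the locus gave −1.30 and −2.11, and members of 24 nt or more gave −1.29 and −1.80. Depth limits low members most: the median member had 8 to 9 reads in the MC-LR and 7 to 15 in the Hsp90aa1 shRNA libraries, and 4 and 15 members were not tested.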
